A study of Mus musculus with 4 samples.

Results

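MicroRNA genes encode hairpin transcripts that are cut into short guide RNAs. They were taken as the gene symbols that begin with Mirlet7, or with Mir and a digit, in either deposited table, leaving out Mir6240 and the host transcripts whose names end in hg. The rule found 88 symbols among 20793, in 120 of 22781 rows, and used no measured value. Symbols with several rows were represented by the row with the highest mean over the 4 libraries. Mir1843 is an older RefSeq synonym of Mir1843a, so these 2 symbols stand for 1 locus, and the counts below treat them as separate members.

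The study sequenced RNA from mouse embryonic stem cells, pluripotent cells that were grown here without feeders on gelatin with LIF and serum. All 4 libraries came from C57BL/6 cells, with no gene deletion named in the labels. The mutant IP library held RNA recovered on anti-FLAG M2 beads from cells transfected with FLAG-tagged mutant Dis3l2, and the mock IP library held RNA recovered on the same beads from mock-transfected cells. The mutant input and mock input libraries held RiboMinus-selected RNA, from which ribosomal RNA is depleted, of the same transfections and with no antibody. The labels name neither the mutation nor the promoter of the FLAG construct, and they do not say whether the endogenous Dis3l2 was present. With 1 library per group no difference has a replicate check and no p-value is given.

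A primary microRNA transcript is cut in the nucleus by Drosha and Dgcr8, exported by Xpo5 and cut again by Dicer1, and 1 strand of the duplex is loaded onto an Argonaute protein. Bases 2 to 8 of the loaded strand, the seed, pair with target mRNAs. In embryonic stem cells Lin28a binds let-7 precursors and recruits the terminal uridylyltransferases Zcchc11 and Zcchc6, and Dis3l2 degrades the uridylated precursor from its 3′ end. Some microRNA hairpins lie within small nucleolar or Cajal body RNAs (snoRNAs and scaRNAs), which guide modification of other RNAs.

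The tables hold reads at annotated genes, so a value at a microRNA gene is a count of reads over its hairpin. Whether such a read came from a mature microRNA, its precursor or a longer transcript through the same locus was not tested. The deposited values were whole read counts divided by 1 factor per library, and folds below are ratios of these values. Intervals are exact 95% intervals of the ratio of 2 libraries. They and the floor of 3 reads per library, which stands in for a 0, cover counting error only, because PCR copies are not independent molecules. The noncoding table held 3183346 reads in the mutant IP, 2157604 in the mock IP, 2746737 in the mutant input and 2738512 in the mock input. The mRNA table held 2275647, 1860030, 307324 and 291175 reads in the same order of libraries. All 10 embryonic stem cell marker genes were listed, with summed reads of 3632 in the mutant IP, 2424 in the mock IP, 132 in the mutant input and 176 in the mock input. Summed reads of 5 listed fibroblast markers were 152, 65, 22 and 12, and those of 3 listed endoderm markers were 20, 26, 2 and 0, in the same order.

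Hairpins of members with reads mainly in the inputs are shown first, with Mir1843a for its likeness to Mir1843b, from RefSeq on GRCm38.p6, 5′ to 3′, with the annotated mature arms in capitals. Mir3069 (chr12:105031077-105031141, minus strand) lies within the spans of Scarna13 and the snoRNA host gene Snhg10. Mir1843b (chr1:159340358-159340423, plus strand) lies within Scarna3a, and Mir1843a (chr12:80391613-80391677, minus strand) within Scarna3b. Mir6516 (chr11:117077348-117077457, plus strand) lies within Snhg20, a snoRNA host gene, and Mir3068 (chr12:87437679-87437757, minus strand) within the protein-coding gene Alkbh1.
Mir3069: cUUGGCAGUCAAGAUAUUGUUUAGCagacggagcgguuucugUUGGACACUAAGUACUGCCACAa
Mir1843b: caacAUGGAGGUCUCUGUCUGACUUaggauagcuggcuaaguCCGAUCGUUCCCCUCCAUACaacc
Mir1843a: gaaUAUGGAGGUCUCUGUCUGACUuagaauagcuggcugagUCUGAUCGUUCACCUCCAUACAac
Mir6516: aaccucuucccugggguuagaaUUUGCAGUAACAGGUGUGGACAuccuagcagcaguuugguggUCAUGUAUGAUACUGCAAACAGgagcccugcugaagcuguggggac
Mir3068: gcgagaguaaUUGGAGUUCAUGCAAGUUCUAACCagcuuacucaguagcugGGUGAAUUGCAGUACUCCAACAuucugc
The hairpins of Mir1843a and Mir1843b were identical at 59 of 66 aligned positions (89.4%). The Mir1843b hairpin ends in ACAACC, and an ACA followed by 3 bases is the end that snoRNAs of the H/ACA class carry. Of 1005 mouse hairpins in the RefSeq table, read on their own strand, 16 (1.59%) end in ACANNN, and Mir1843b was the only 1 of the 64 microRNA genes with a listed hairpin that does. The hinge motif ANANNA of that class, searched on the same strand, was present in 574 hairpins (57.1%) and in 35 of the 64. The Mir1843a hairpin as listed ends in ACAAC, 1 base short of ACANNN. A match is a description of the letters.

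The mature sequences of members whose reads lay mainly in the IPs, and of members known for their role in stem cells, are shown with the seed in capitals. The mature sequences lie on GRCm38.p6 at chr9:110281353-110281371 (plus strand, miR-6236), chr17:6895259-6895279 (minus, miR-692 of Mir692-1), chr5:77272767-77272787 (plus, miR-5098), chr17:35251314-35251334 (plus, miR-8094), chr11:95963304-95963325 (minus, miR-3063-3p), chr19:44303171-44303192 (plus, miR-5114), chr1:106546536-106546555 (minus, miR-3473f), chr17:17830366-17830387 (plus, let-7e-5p), chr7:3218968-3218989 (plus, miR-291a-3p), chr7:3220691-3220712 (plus, miR-294-3p) and chr14:115043684-115043706 (plus, miR-17-5p).
miR-6236: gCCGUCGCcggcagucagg
miR-692: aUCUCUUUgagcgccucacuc
miR-5098: gUUACAUGgugaagcccaguu
miR-8094: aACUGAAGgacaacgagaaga
miR-3063-3p: uGAGGAAUccugaucucucgcc
miR-5114: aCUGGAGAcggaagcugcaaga
miR-3473f: cAAAUAGGacuggagagaug
let-7e-5p: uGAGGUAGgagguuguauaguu
miR-291a-3p: aAAGUGCUuccacuuugugugc
miR-294-3p: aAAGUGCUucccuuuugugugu
miR-17-5p: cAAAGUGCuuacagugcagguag
Mature sequences were compared for 79 members, with 116 arms and 108 distinct seeds. Of these seeds 7 were shared by 2 or more member genes, among them AAGUGCU of miR-291a-3p and miR-294-3p and UCUCUUU of the 3 genes for miR-692. The seeds of miR-1843a-5p (AUGGAGG) and miR-1843b-5p (UGGAGGU) are the same stretch of the stem read 1 base apart.

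Most microRNA genes had few reads. Of the 88, 15 had no read in any library, 59 had reads but stayed under 20 in every library, and 14 reached 20 reads in at least 1. Mirlet7e was the only let-7 gene listed, and it had 0 reads in all 4 libraries. The best-known precursor substrates of Dis3l2 were therefore not measured above the floor of 3 reads in these tables. Of the miR-290 to miR-295 cluster, which is abundant in embryonic stem cells, Mir291a and Mir294 were listed. Each had 2 mock IP reads and none elsewhere. Their locus lies within the span of the noncoding gene D7Ertd143e, which had 138 reads in the mutant IP, 55 in the mock IP and 0 in either input. D7Ertd143e was 2.32-fold higher in the mutant IP than in the mock IP (1.69 to 3.24). Mir17 of the proliferation-associated miR-17/92 cluster had 0 reads in the mutant IP, 4 in the mock IP and 0 in either input, and Mir18 had 3 reads in the mock input alone. The host transcript of that cluster, Mir17hg, had 21 reads in the mutant IP, 97 in the mock IP, 1 in the mutant input and 6 in the mock input, a mutant over mock IP ratio of 0.20 (0.119 to 0.324).

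At least 1 read was present for 45 members in the mutant IP, 39 in the mock IP, 24 in the mutant input and 20 in the mock input. Reads lay in the IPs only for 41 members, against 28.8% of all 20793 symbols, in both kinds of library for 20, against 59.1%, and in the inputs only for 12, against 7.26%. The 15 members with no read stood against 4.93% of all symbols. Of the members, 23 had reads in both IPs, against 66.2% of all symbols. Another 22 had mutant IP reads with 0 in the mock IP (14 reads at most), against 12.2% of all symbols, and 16 had the reverse (12 reads at most), against 9.44%. The noncoding table gives the entries of 71 of the 88 members and of 4808 symbols in all. Over those 4808 the IP shares were 51.4%, 16.7% and 12.4% in the same order. Their shares were 29.0% for IPs only, 51.5% for both kinds, 11.5% for inputs only and 7.95% for no read.

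**Figure D1:**
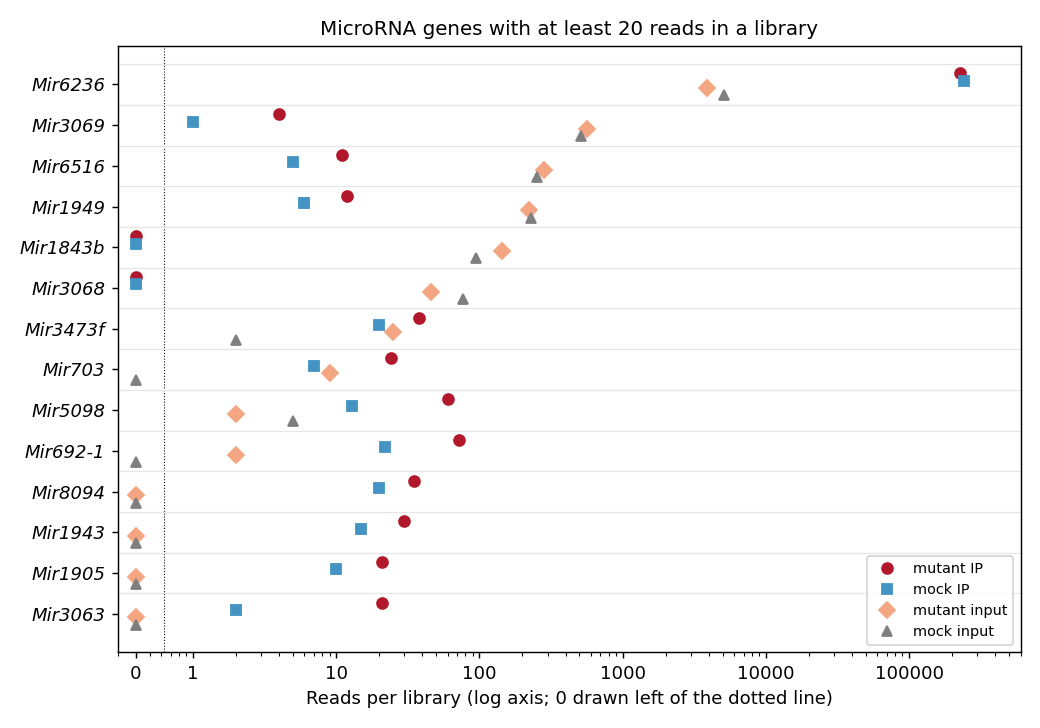
Reads per library (log axis, with 0 drawn left of the dotted line) of the 14 microRNA genes with at least 20 reads in a library, 1 point per library. Mir3069, Mir6516, Mir1949, Mir1843b and Mir3068 have their high points in the 2 inputs, and the members from Mir3473f down have their highest point in the mutant IP.

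Mir6236 held nearly all reads of microRNA genes. It had 228571 reads in the mutant IP, 241290 in the mock IP, 3878 in the mutant input and 5131 in the mock input. These were 99.8%, 99.9%, 74.0% and 80.8% of all member reads, and 7.18% (exact binomial interval 7.15 to 7.21), 11.2% (11.1 to 11.2), 0.141% and 0.187% of the noncoding table. Both IPs were far above both inputs at this gene. It was 39.3-fold higher in the mutant IP than in the mutant input (38.1 to 40.6) and 47.0-fold higher in the mock IP than in the mock input (45.7 to 48.4). The mutant over mock IP ratio was 0.877 (0.872 to 0.882), so Mir6236 was lower in the mutant IP, and the ratio between the inputs was 1.05 (1.01 to 1.09). RefSeq places it within the lncRNA Gm39429. The row Rn18s-rs5, named for the 18S ribosomal RNA, was 2.76-fold higher in the IP than in the input in both conditions. The part of RiboMinus selection, which the labels give for the inputs and not for the IPs, in such ratios was not tested.

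Without Mir6236, the other 87 members summed to 528 reads in the mutant IP, 282 in the mock IP, 1361 in the mutant input and 1219 in the mock input. The next 5 by mean value, Mir3069, Mir6516, Mir1949, Mir1843b and Mir3068, held 5.11% of the mutant IP sum and 4.26% of the mock IP sum, but 92.3% of the mutant input sum and 95.6% of the mock input sum. The direction of a summed ratio therefore depended on which members it held. For all 88 the sum was 29.2-fold higher in the mutant IP than in the mutant input and 38.0-fold higher in the mock IP than in the mock input. Without Mir6236 the same ratios were 0.259 (0.233 to 0.286) and 0.231 (0.203 to 0.264). Without all 6, a grouping chosen after the values were seen, they were 3.18 (2.57 to 3.96) and 5 (3.72 to 6.83).

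Outside Mir6236, the members with most reads in the inputs lie in scaRNA, snoRNA or snoRNA host genes. RefSeq gene spans were grouped by the kind of gene that overlaps each member, and this grouping was also chosen after values were seen. A guide RNA gene overlaps 5 members (Mir3069, Mir1843b, Mir1843, Mir1843a and Mir1291), and was given priority over other overlaps, since the last 4 also lie in a protein-coding gene and Mir3069 in Snhg10. Of the other members, a snoRNA host gene holds Mir6516 and Mir1949. These 7 held 5.11% of the reads outside Mir6236 in the mutant IP and 4.26% of those in the mock IP, against 90.8% in the mutant input and 89.3% in the mock input. Among members in neither class, a protein-coding gene holds 60, which had 69.5% of these reads in the mutant IP, 62.1% in the mock IP, 7.42% in the mutant input and 8.37% in the mock input. Of the rest, 9 lie in another noncoding gene or pseudogene, 11 overlap no gene and 1 was not placed. The sources used here do not say whether counting used strand, so reads of overlapping genes cannot be told apart.

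**Figure D2:**
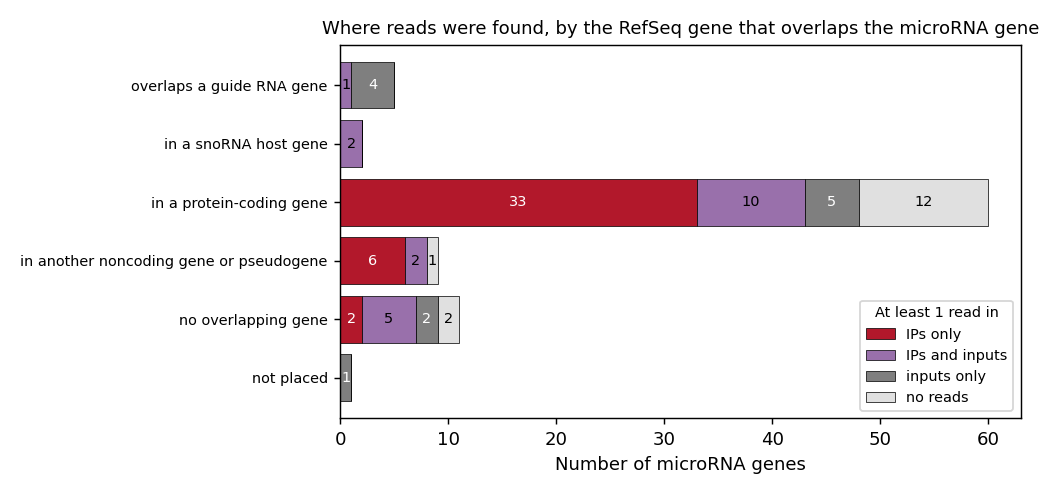
Number of microRNA genes (x axis) by the kind of RefSeq gene that overlaps them (rows), split by where at least 1 read was found. Members in several classes are counted in the uppermost. Of the 60 members in the protein-coding row 33 had reads in the IPs only, while all 7 in guide RNA or snoRNA host genes had reads in an input.

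Mir3069 had 4 reads in the mutant IP, 1 in the mock IP, 561 in the mutant input and 511 in the mock input. Its IP over input ratio was 0.00475 (0.00129 to 0.0122) in the mutant and 0.00196 (4.95e-05 to 0.0110) in the mock. Snhg10 had 18 mutant IP reads and none elsewhere. Scarna13, the scaRNA around it, had 40 reads in the mutant IP, 2 in the mock IP, 3209 in the mutant input and 3258 in the mock input. Both genes were low in both IPs. Scarna13 was 18.5-fold higher in the mutant IP than in the mock IP (4.80 to 158), and for Mir3069, with few reads, the ratio was 3.70 (0.367 to 182). Those counts are from the mRNA table, where per 100 bases Mir3069 had 863 reads in the mutant input and 786 in the mock input, and Scarna13 had 1167 and 1185. In the noncoding table Mir3069 had 438 and 406 reads per 100 bases, and Scarna13 had 1071 and 1096.

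Mir1843b had 0 reads in either IP, 144 in the mutant input and 95 in the mock input. It was at least 72-fold lower in the mutant IP than in the mutant input and at least 31.7-fold lower in the mock IP than in the mock input. Scarna3a, around it, also had 0 reads in either IP, with 210 in the mutant input and 141 in the mock input. In the noncoding table Mir1843b had 108 reads per 100 bases in the mutant input and 62.1 in the mock input, and Scarna3a had 118 and 85.6. In the mRNA table the order of the genes turned over, with 218 and 144 reads per 100 bases for Mir1843b and 178 and 119 for Scarna3a. The Mir1843a locus had 0 reads in either IP and in the mock input, but 15 reads in the mutant input under the symbol Mir1843 and 7 under Mir1843a. Scarna3b, around it, had 26 reads in the mutant input and 4 in the mock input, and 0 in either IP. Mir1291, within the H/ACA snoRNA gene Snora34, had 4 reads in the mutant input and 0 elsewhere, while Snora34 had 0 reads in the mutant IP, 12 in the mock IP, 29 in the mutant input and 36 in the mock input.

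**Figure D3:**
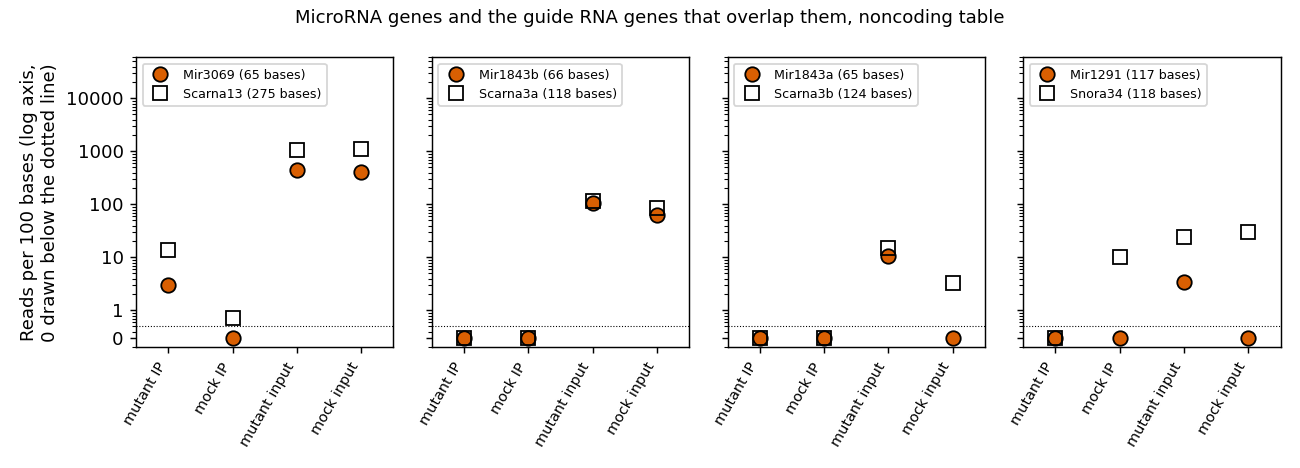
Reads per 100 bases in the noncoding table (log axis, with 0 drawn below the dotted line) of 4 microRNA genes (circles) and the guide RNA genes that overlap them (squares), by library. Mir1843b lies just below Scarna3a in both inputs, and Mir3069 lies below Scarna13 in every library.

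The members of snoRNA host genes showed the same order of libraries. Mir6516 had 11 reads in the mutant IP, 5 in the mock IP, 284 in the mutant input and 252 in the mock input, with IP over input ratios of 0.0258 (0.0127 to 0.0469) and 0.0198 (0.00639 to 0.0469). Mir1949, in Snhg4, had 12 reads in the mutant IP, 6 in the mock IP, 221 in the mutant input and 230 in the mock input, with ratios of 0.0362 (0.0184 to 0.0645) and 0.0261 (0.00947 to 0.0577). Mir1949 lay less far below the inputs in its other rows. These had 37, 18, 145 and 134 reads in the mRNA table and 13, 5, 27 and 32 in the noncoding table, in the same order of libraries. The host genes of Mir6516 and Mir1949 also had fewer reads in either IP than in either input. Snhg20 had 59 reads in the mutant IP, 15 in the mock IP, 710 in the mutant input and 788 in the mock input. Snhg4 had 35, 46, 205 and 238 reads in the same order.

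Mir3068 was the only 1 of the 60 members in a protein-coding gene and in no guide RNA or snoRNA host gene that was at least 4-fold lower in an IP than in its input. It had 0 reads in either IP, 46 in the mutant input and 77 in the mock input, and was at least 23-fold lower in the mutant IP and at least 25.7-fold lower in the mock IP than in the matching input. These bounds are from the row of Mir3068 with the most reads. Its other rows had 13 mutant input and 15 mock input reads in the mRNA table, and 3 and 7 in the noncoding table, with 0 in either IP. Alkbh1, a demethylase gene that holds it, had the opposite order, with 92 reads in the mutant IP, 61 in the mock IP, 6 in the mutant input and 4 in the mock input.

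Of the members with a read, 30 of 45 in the mutant IP and 26 of 39 in the mock IP lay in protein-coding genes. Of all 88 members 60 did, a like share. Mir692-1, which overlaps no RefSeq gene, had 72 reads in the mutant IP, 22 in the mock IP, 2 in the mutant input and 0 in the mock input. Mir5098, within Rest, a repressor of neuronal genes, had 60 reads in the mutant IP, 13 in the mock IP, 2 in the mutant input and 5 in the mock input. Mir8094, within the RNA helicase gene Ddx39b, had 35 and 20 reads in the IPs and 0 in either input. Mir1943, within Tmem184b, had 30 mutant IP reads and 15 mock IP reads, against 0 in either input. Mir1905, which lies on the opposite strand of Mex3a, had 21 and 10 reads in the mutant and mock IPs and 0 in either input.

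Host genes also had more reads in the IPs, as did the mRNA table as a whole. That table held 2275647 and 1860030 reads in the mutant and mock IPs, against 307324 and 291175 in the mutant and mock inputs. For 38 protein-coding hosts of members with a read in an IP, the median was 128 reads in the mutant IP, 113 in the mock IP, 7 in the mutant input and 9 in the mock input. Rest had 808 reads in the mutant IP, 545 in the mock IP, 42 in the mutant input and 58 in the mock input. Of the members with a known strand relative to such a host, 30 lie on its strand and 6 on the opposite strand. How many reads at these members came from unspliced host transcripts was not tested.

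Each IP was set against the input of its own condition, which asks how RNA recovered on the beads differed from the RiboMinus-selected RNA of the same cells. Log2 ratios had a pseudocount of 1 added to each value, which understates the change of low members, for features with a value of at least 1 in a library of the ratio. In the mutant, 13 of 46 measured members were at least 4-fold higher in the IP, against 54.6% of all measured features, and 8 were at least 4-fold lower, against 3.68%. In the mock, 14 of 39 were at least 4-fold higher, against 54% of all, and 7 were at least 4-fold lower, against 3.36%. The 2 tables stood apart here: the median log2 mutant IP over input of features with at least 20 reads in both libraries was 1.62 in the mRNA table and -0.41 in the noncoding table, and 71 of the 88 entries are from the noncoding table. With each table centred on that median 20 members were higher in the mutant IP, and with a pseudocount of 0.5 instead 24 were higher in the mutant and 22 in the mock. The median log2 ratio of members was 1.60 in the mutant and 1.58 in the mock, and that of all features was 2.23 and 2.15. Lower in both conditions were Mir1843b, Mir1940, Mir1949, Mir3068, Mir3069 and Mir6516, which are 75% of the lower members in the mutant and 85.7% of those in the mock, where over all features the shares were 49.8% and 57.0%. Higher in both were Mir1905, Mir1943, Mir6236, Mir692-1 and Mir8094, which are 38.5% and 35.7% of the higher members, where over all features the shares were 66.4% and 70.3%. With at least 20 reads in a library of the ratio, 7 of 14 members were higher in the mutant IP than in its input, against 68.3% of such features, and 5 were lower, against 3.47%. In the mock 4 of 9 such members were higher, against 68.1%, and 5 were lower, against 4.16%.

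By kind of overlapping gene, 6 of 7 measured members in guide RNA or snoRNA host genes were at least 4-fold lower in the mutant IP than in the mutant input, and none was higher, against 3.68% and 54.6% of all features. Their median log2 ratio was -4.51 (-6.98 to -1.69), and Mir1843 and Mir1843a, which are 1 locus, are both counted among the 6. In the mock, 4 of 4 were lower, against 3.36%, with a median of -5.19. Of measured members in protein-coding genes, 11 of 27 were at least 4-fold higher and 1 was lower in the mutant, against the same 54.6% and 3.68%, with a median of 1.84. In the mock 7 of 24 were higher and 1 lower, against 54% and 3.36%, with a median of 1.58.

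**Figure D4:**
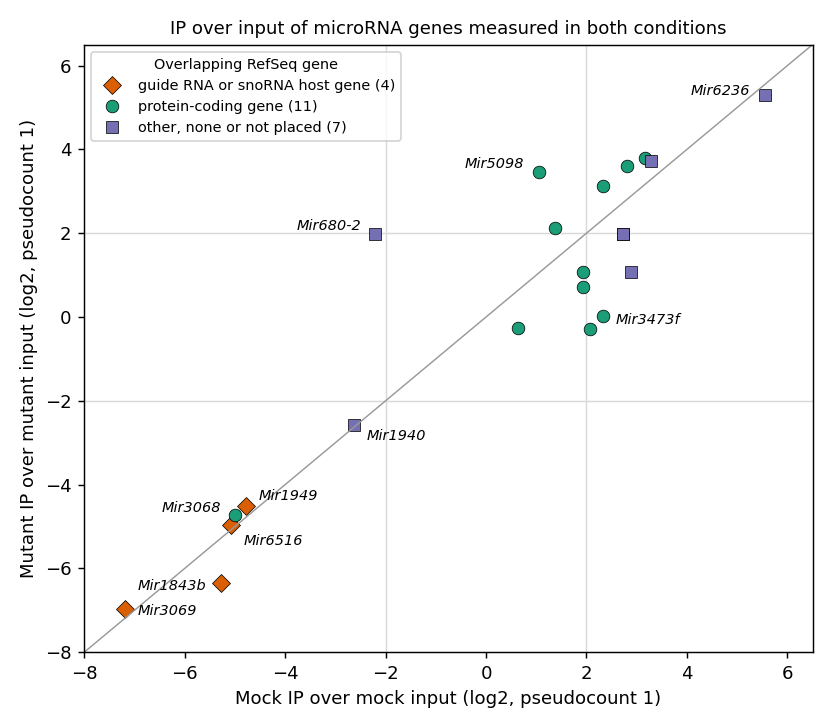
Log2 IP over input in the mutant (y axis) against that in the mock (x axis), with a pseudocount of 1, for the microRNA genes measured in both conditions, coloured by the kind of gene that overlaps them. The 4 members in guide RNA or snoRNA host genes, and Mir3068, lie at the lower left near the line of equal ratios, and Mir6236 lies at the upper right.

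The mutant IP was then set against the mock IP, which asks what the tagged protein recovered beyond background on the beads. At least 4-fold higher were 7 of 50 measured members, against 10.6% of all measured features, and 3 were at least 4-fold lower, against 5.73%. With ratios centred on the median of features with at least 20 reads in both libraries, a log2 shift of 0.37 in the noncoding and 0.31 in the mRNA table, the split became 1 higher and 7 lower. The median log2 ratio was 0.80 for members and 0.40 for all features. Of the 50, 24 had reads in 1 IP alone beyond the floor, and with these at their bound the members' median was 0.89.

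Of the 7 higher members only Mir3063 had reads in both IPs. It lies within Igf2bp1, an mRNA-binding protein gene, and had 21 reads in the mutant IP, 2 in the mock IP and 0 in either input, a ratio of 9.72 (2.38 to 85.5). Igf2bp1 had 864 reads in the mutant IP, 559 in the mock IP, 28 in the mutant input and 50 in the mock input. Mir5114, within the lipid desaturase gene Scd2, had 14 mutant IP reads and 0 mock IP reads, at least 4.32-fold higher, with 0 in either input. Mir1946a and Mir6916 had 11 mutant IP reads and 0 mock IP reads, at least 3.40-fold higher. Mir6960 and Mir8093 had 10 against 0 (at least 3.09-fold higher), and Mir6357 had 9 against 0 (at least 2.78-fold higher). The bounds of the last 5 lie under 4-fold, and their calls rest on the pseudocount of 1.

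Among members with at least 20 reads in an IP, Mir5098 was 4.27-fold higher in the mutant IP (2.32 to 8.49) and Mir692-1 was 3.03-fold higher (1.86 to 5.13). Mir703 had 24 reads in the mutant IP, 7 in the mock IP, 9 in the mutant input and 0 in the mock input, a mutant over mock IP ratio of 3.17 (1.33 to 8.72). The intervals of Mir8094 (1.62, 0.910 to 2.96), Mir1943 (1.85, 0.966 to 3.70) and Mir1905 (1.94, 0.876 to 4.62) include 1. The Mir1943 values are from the noncoding table. In the mRNA table it had 27 mutant IP reads and 7 mock IP reads, a wider difference for which no interval was computed. Among measured features with at least 20 reads in an IP, 1 of 9 members and 8.29% of all features were at least 4-fold higher, and 0 of 9 members and 2.35% of all were at least 4-fold lower. These calls use the pseudocount of 1, by which Mir5098 (log2 1.91) fell under 4-fold.

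Lower in the mutant IP were Mir6417, with 0 reads against 12 in the mock IP (at least 4.32-fold lower), Mir713, with 0 against 9 (at least 3.24-fold lower), and Mir432, with 0 against 8 (at least 2.88-fold lower). The bounds of Mir713 and Mir432 lie under 4-fold, and their calls rest on the pseudocount of 1. In the noncoding table Mir432 had 0 against 3 reads, at the floor. Mir682 had 3 mutant IP reads and 16 mock IP reads, a ratio of 0.174 whose interval began at 0.0324. In the noncoding table Mir682 had 2 mutant IP reads and 7 mock IP reads. The imprinted gene Rtl1 holds Mir432, Mir433, Mir673, Mir3070a and Mir3070b within its span. Their mature sequences lie on the plus strand, and their strand relative to Rtl1 was not determined. Mir433 also overlaps a lncRNA gene. Of these 5 members 3 had reads, which summed to 0 in the mutant IP, 22 in the mock IP and 0 in either input. The Mir432 and Mir433 reads in that sum are from the mRNA table, and in the noncoding table Mir433 had 2 mock IP reads. Rtl1 itself had 67 reads in the mutant IP, 81 in the mock IP, 8 in the mutant input and 17 in the mock input.

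Between the inputs, which show the RNA of the cells after each transfection, 14 of 27 measured members were at least 2-fold higher in the mutant input, against 35.3% of all features, and 5 were at least 2-fold lower, against 20%. At 4-fold, 4 were higher (Mir1843, Mir1843a, Mir3473f and Mir703), against 8.94% of all, and 1 was lower (Mir680-2), against 4.09%. Of these 4, Mir1843 and Mir1843a are 1 locus. The median log2 ratio was 1.05 for members and 0.50 for all features, so the deposited scaling itself stood above 0. Of the 27, 8 had reads in 1 input alone that did not exceed the floor of the other input in value. With at least 20 reads in an input, 2 of 7 members were at least 2-fold higher and 0 were lower. The median of these 7 was 0.61, beside 0.42 for all features of that depth. In such bulk samples, fewer cells of a type and less RNA per cell cannot be told apart.

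Mir3473f, within Bcl2, had 38 mutant IP reads and 20 mock IP reads, 25 in the mutant input and 2 in the mock input. It was 17.4-fold higher in the mutant input than in the mock input (4.33 to 151), and its mutant over mock IP ratio was 1.76 (0.998 to 3.19). Bcl2, a survival gene, had 1 mutant IP read, 1 mock input read and none elsewhere. Mir1843b was 2.11-fold higher in the mutant input (1.61 to 2.76) and Scarna3a 2.07-fold (1.66 to 2.58), and Scarna3b was 9.03-fold higher (3.13 to 35.6). Mir3069 was 1.52-fold (1.35 to 1.72), Mir6516 1.57-fold (1.32 to 1.86) and Mir1949 1.33-fold higher (1.10 to 1.61), close to the median of all features. For Mir3068 the ratio was 0.830 (0.563 to 1.21).

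The specific IP enrichment divides IP over input in the mutant by IP over input in the mock. It was at least 4-fold for 9 of 63 measured members, against 13.6% of all features, and at least 4-fold below 1 for 7, against 10.2%. The median log2 value was 0.26 for members and 0.11 for all. For the higher members Mir3063, Mir5114, Mir6357, Mir6916, Mir6960 and Mir8093 it repeats the IP difference, since neither input had a read. The comparisons share libraries, so their calls are not independent.

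The genes that make and turn over microRNAs were measured in the same libraries. Of 18 listed biogenesis genes none was at least 4-fold apart between the IPs, against 10.6% of all features higher and 5.73% lower. Their median log2 ratio was 0.48, beside 0.40 for all features. The nuclear enzyme gene Drosha had 205 reads in the mutant IP, 260 in the mock IP, 5 in the mutant input and 14 in the mock input. Its partner Dgcr8 had 156 and 89 reads in the mutant and mock IPs, Dicer1 had 198 and 158, and Ago2 had 241 and 179. In IP over input 14 of 18 were at least 4-fold higher in the mutant and 16 of 17 in the mock, beside the 54.6% and 54% of all features. Among features with at least 20 reads in a library of the ratio these shares were 68.3% and 68.1%. All 18 genes are from the mRNA table, where the median log2 ratio of features with at least 20 reads in both libraries was 1.62 and 1.76.

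Of 13 listed turnover genes 3 were at least 4-fold higher in the mutant IP than in the mock IP and none was lower, against 10.6% and 5.73% of all features, with a median log2 ratio of 0.46 beside 0.40 for all. Beside Dis3l2 itself, with 127 mutant IP reads and 21 mock IP reads, these were the uridylyltransferase Zcchc11, with 146 and 16, and the poly(A) polymerase gene Papd4, with 29 and 4. Papd4 was 6.71-fold higher (2.36 to 26.3). Reads of the transfected Dis3l2 construct and of the endogenous gene cannot be told apart. Lin28a had 167 reads in the mutant IP, 112 in the mock IP, 4 in the mutant input and 8 in the mock input, a mutant over mock IP ratio of 1.38 (1.08 to 1.77).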

How the data were processed

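The submitters' processing notes name Bowtie and the mouse build mm9. How reads were counted, with or without strand, and what was done with multiply aligned reads is not stated in the labels. The authors deposited 2 tables of a signal per transcript, from RefSeq (mRNA table) and Ensembl (noncoding table), per the file headers. The deposited signal was recovered as whole reads within 0.03 reads for 100% of values, after multiplying by 1 factor per library whose meaning is not given. The design had assumed normalised values; the ratios were kept as planned, and no count test could be run on 1 library per group.

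The members and gene lists were chosen with earlier results of these data known. Log2 ratios of deposited values used a pseudocount of 1, a minimum value of 1 in a library of the ratio, and 4-fold calls (also 2-fold between inputs). Named members were those with at least 20 reads in a library and up to 5 on each side of each comparison, with the members of the lists; the members in Rtl1, Mir1291, Mir682 and the pairs with overlapping genes were chosen after values were seen. Exact conditional binomial 95% intervals came from recovered reads. Gene overlap and sequences came from RefSeq tables of GRCm38.p6, matched by accession or symbol. Of 88 members 87 were placed and 64 had a listed hairpin. Alternatives were pseudocounts of 0.5 and 5, a minimum of 5, equal totals, median centring, either table alone and omission of the member with most reads. Simulated data tested the mutant over mock IP ratio only, with changes placed in features of at least 20 mock IP reads. Calls of members with fewer reads were not tested there. Python 3.11.15, pandas 2.3.3, NumPy 2.4.6, SciPy 1.17.1, Biopython 1.88 and matplotlib 3.10.9 were used.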

Additional observations from a re-analysis of the deposited data

Results flagged for a closer look

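Of 30 members with reads in both conditions, Mir680-2 was the only 1 whose IP over input ratio ran in opposite directions in the 2 conditions with both 95% counting intervals leaving out 1. In the mRNA table it had 8 mutant IP reads and 0 mutant input reads (log2 1.99), against 0 mock IP reads and 9 mock input reads (log2 -2.20). In the noncoding table it had 1 read in the mutant IP, 1 in the mock input and 0 in the others, all under the floor of 3. The difference between the conditions was not tested, as each had 1 IP and 1 input library.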

How the results depend on the processing

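No paired analysis was possible because each group is 1 library and the labels give no replicate numbers; for the same reason no library could be left out. Of 135 alternatives of summary values 79 stayed within the set tolerance, 51 moved and 5, all of them sums, turned direction, and of 516 for 34 named members 414 kept their call, 68 lost it, 34 gained it and 0 reversed. With a pseudocount of 0.5, members at least 4-fold higher and lower were 17 and 10 in mutant over mock IP (7 and 3 as reported). Higher members were 24 in mutant IP over input and 22 in mock IP over input, higher and lower were 9 and 2 between inputs and 18 and 17 in the specific enrichment, and the IP over input medians were 2.34 and 2.32. With a pseudocount of 5 these counts were 0 and 0 between IPs, 3 higher and 5 lower in mutant IP over input, 1 higher in mock IP over input (median 0.49), 0 and 0 between inputs, and 0 and 0 in the specific enrichment. With a minimum of 5 they were 2 and 0 between IPs, 8 higher in each IP over input (medians 0.37 and 2.32), 0 lower between inputs, and 3 and 2 in the specific enrichment. Median centring gave 1 and 7 between IPs and 20 higher in mutant IP over input. The noncoding table alone gave 1 lower between IPs, 8 higher in mock IP over input, 2 and 0 between inputs and 4 lower in the specific enrichment, and sums of 31.5, 40.1 and 0.785 for mutant IP over input, mock IP over input and specific enrichment. The mRNA table alone gave a median specific enrichment of -0.48 (0.26 as reported, not called), 2 higher between IPs, 5 and 7 higher in mutant and mock IP over input, 2 higher between inputs, and 3 and 3 in the specific enrichment. Equal totals gave 2 lower between inputs and sums of 0.643 between IPs, 27.6 in mutant IP over input and 0.729 in the specific enrichment, and turned the sum between inputs (1.15 as reported) to 0.882. Without Mir6236 the sum between IPs turned to 1.73 (0.878 as reported), mutant IP over input to 0.259 (29.2), mock IP over input to 0.231 (38.0) and the specific enrichment to 1.12 (0.766), while the sum between inputs was 1.55. Members at 0 in 1 library gain or lose calls with the pseudocount by its construction; the cause of the other changes was not tested. Depth limits most members: 59 of 88 had reads but stayed under 20 in every library.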

Other observations

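The 2 tables often disagreed on the same microRNA gene. Of 30 members listed in both, 14 had identical reads, 10 of them with any reads, while 12 had more in the mRNA table and 4 more in the noncoding table. Mir3069 summed over the 4 libraries to 1077 reads in the mRNA table and 551 in the noncoding table, and Mir692-1 to 96 and 0. Mir3068 had the reverse, with 28 reads in the mRNA table and 123 in the noncoding table. Mir1906-1 and Mir1906-2 had identical reads, 8 in the mutant IP, 14 in the mock IP and 0 in either input, so they are not independent observations. What makes the tables differ was not tested.

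Of the microRNA host transcripts left out of the member list, 15 of 16 listed were measured between the IPs. At least 4-fold higher in the mutant IP were Mir124-2hg and Mir143hg, each with 10 reads against 0 in the mock IP, where 10.6% of all features were higher. At least 4-fold lower were Mir17hg and Dnm3os, and Dnm3os had 0 reads against 9 in the mock IP, where 5.73% of all were lower. The bounds of Mir124-2hg and Mir143hg (at least 3.09-fold) and of Dnm3os (at least 3.24-fold) lie under 4-fold. Their calls rest on the pseudocount of 1. The 4 members with names of the Mir466 and Mir467 families lie outside chromosome 2, which holds the Sfmbt2 cluster, and 1 of them was measured.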
